A study of Homo sapiens with 24 samples.

Results

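Expression of the genes that encode the hypoxia-inducible factors and the enzymes that control them was examined in 2 metastatic clear cell renal cell carcinoma (ccRCC) lines with and without depletion of the renal lineage factor PAX8. The set is defined by gene symbol and holds 10 of the 26475 genes listed: EPAS1, HIF1A, HIF3A, ARNT, ARNT2, VHL, EGLN1, EGLN2, EGLN3 and HIF1AN. All 10 passed the filter on low counts.

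The libraries were RNA-seq of 786-M1A and OS-LM1 cells, metastatic derivatives of the ccRCC lines 786-O and OS-RC2 that carry VHL mutations, grown in RPMI medium with serum. Each line was profiled with a construct against PAX8, either shPAX8-1 or shPAX8-2, and with sgNTC18, which by its name is a non-targeting guide RNA. The design therefore has 6 groups of 4 replicates, 24 libraries in all. The hairpin control that the study used for its RNAi experiments was not analysed here, so PAX8 depletion and any other difference between the shPAX8 and sgNTC18 cultures cannot be told apart. The labels do not say whether replicates came from separate cultures, and the p-values measure the spread between these libraries only.

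The hypoxia-inducible factors are dimers of an oxygen-labile alpha subunit and a stable beta subunit. In the presence of oxygen the prolyl hydroxylases encoded by EGLN1, EGLN2 and EGLN3 mark the alpha subunit, the VHL protein recognizes the mark within a ubiquitin ligase, and the subunit is degraded. HIF1AN encodes an asparaginyl hydroxylase, also called FIH, that blocks binding of the coactivators CBP and p300 to the alpha subunit. In ccRCC, loss of VHL function leaves the alpha subunits stable, and HIF2A, the product of EPAS1, is the subunit best known for driving the growth of these tumours. This control acts on protein, and the values below are transcript levels only.

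The constructs that define the groups target separate parts of the PAX8 transcript, and their guides are shown because several of the genes differed between the constructs. The guide strands are printed 5′ to 3′ as DNA, with the seed, bases 2 to 8, in capitals. Each is followed by the site it matches in full, with the bases that pair with the seed in capitals.
shPAX8-1 guide: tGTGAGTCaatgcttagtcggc
shPAX8-1 site in PAX8: gccgactaagcattGACTCACa
shPAX8-2 guide: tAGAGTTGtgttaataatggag
shPAX8-2 site in PAX8: ctccattattaacaCAACTCTa
In hg38 the shPAX8-1 site lies on the minus strand at chr2:113241690-113241711, in coding exon 7 of the 12 exons of the canonical PAX8 transcript. The shPAX8-2 site lies at chr2:113218122-113218143, in the 3′ UTR within exon 12. Of 14 annotated PAX8 transcripts, 10 hold the shPAX8-1 site, not always in coding sequence, and 7 hold the shPAX8-2 site. The 7 letters complementary to the shPAX8-1 seed, GACTCAC, occurred in the longest GENCODE transcript of 17.1% of the 14083 tested genes with such a transcript, and among the 10 genes in ARNT2 only, once. The letters CAACTCT, complementary to the shPAX8-2 seed, occurred in 22.5% of those transcripts and in none of the 10. A match of this length is a description of the letters and not evidence of a site in use.

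RefSeq promoter windows, 250 bases before to 50 bases after an annotated start, were at hand for 8 of the 10 genes. They were searched on both strands for ACGTG and GCGTG, the forms of the core motif that HIF dimers bind. Matches to one form can overlap those to another. Of 35116 promoters of the same length, 48.4% held at least 1 match. Of 12 windows of these genes, 5 did. VHL and ARNT2 had no entry. The windows of HIF1A and EGLN1, the genes that differed most between the lines with shPAX8, are shown with that of EPAS1, the most abundant alpha subunit in 786-M1A cells. Each is read along its gene, in GRCh38.p14, with the matches in capitals.
HIF1A promoter, chr14:61695263-61695562, plus strand: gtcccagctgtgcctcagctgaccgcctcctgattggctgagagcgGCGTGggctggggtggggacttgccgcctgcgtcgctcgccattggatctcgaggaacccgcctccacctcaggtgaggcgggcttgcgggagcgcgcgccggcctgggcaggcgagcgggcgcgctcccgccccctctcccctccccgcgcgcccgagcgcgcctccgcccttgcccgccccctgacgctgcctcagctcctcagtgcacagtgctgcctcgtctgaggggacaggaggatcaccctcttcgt
EGLN1 promoter, chr1:231422238-231422537, minus strand: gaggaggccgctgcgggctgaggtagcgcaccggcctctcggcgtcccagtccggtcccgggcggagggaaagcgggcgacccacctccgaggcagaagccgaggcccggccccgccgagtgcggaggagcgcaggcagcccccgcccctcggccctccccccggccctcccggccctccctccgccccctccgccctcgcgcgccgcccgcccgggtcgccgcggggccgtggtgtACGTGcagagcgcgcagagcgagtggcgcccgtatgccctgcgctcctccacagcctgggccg
EPAS1 promoter, chr2:46297157-46297456, plus strand: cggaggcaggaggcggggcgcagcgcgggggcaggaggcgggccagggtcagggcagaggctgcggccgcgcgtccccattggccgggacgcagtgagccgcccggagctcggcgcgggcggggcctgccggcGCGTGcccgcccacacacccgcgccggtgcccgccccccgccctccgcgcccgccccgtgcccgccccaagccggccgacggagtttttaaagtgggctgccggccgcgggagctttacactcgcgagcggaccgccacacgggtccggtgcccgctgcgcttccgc
Each of these windows held 1 match, which began 204 bases before the start of HIF1A, 13 before that of EGLN1 and 117 before that of EPAS1. Another HIF1A window, chr14:61697462-61697761, is not shown and held no match. The window of EGLN3, a gene widely used as a HIF target, held none.

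Library depth, as the sum of expected counts, ran from 11634419 to 52059375. PAX8 itself was at 142 to 178 TPM (the transcript's share of a library, allowing for its length) in 786-M1A cells with sgNTC18, at 5.99 to 9.76 with shPAX8-1 and at 16.5 to 18.8 with shPAX8-2. In OS-LM1 cells it was at 106 to 122 TPM with sgNTC18, 26.8 to 38.1 with shPAX8-1 and 27.0 to 40.6 with shPAX8-2. The 4 replicates of 786-M1A shPAX8-1 fell into pairs, replicates 1 and 2 against 3 and 4, with PAX8 at 9.62 and 9.76 TPM in the first pair and 5.99 and 6.50 in the second. Chi-square per gene between 2 libraries was 14.1 and 3.73 within these pairs and 44.7 to 77.4 across them. Replicates of 786-M1A shPAX8-2 split the same way less sharply, at 3.96 and 11.7 within pairs and 14.9 to 19.2 across. In OS-LM1 cells the values were 10.4 to 43.8 with sgNTC18, 5.27 to 34.3 with shPAX8-1 and 16 to 89.5 with shPAX8-2. The last, between replicates 3 and 4, was the highest within any group. This measure grows with depth, which ran from 14567945 to 52059375 in OS-LM1 shPAX8-2. The summed level of the 10 renal and ccRCC markers was between 4348 and 10246 TPM, mostly VIM at 3178 to 9345. KRT8 and KRT18 were at 28.9 TPM or more in every library. CA9 was at 0 in 9 libraries, and in 786-M1A cells it did not exceed 0.18 TPM and NDUFA4L2 0.93. They reached 58.4 and 43.5 TPM in OS-LM1 cells with shPAX8. CDH6 was at 45.19 to 69.85 TPM with sgNTC18 and 4.85 to 10.48 with shPAX8, and LHX1 at 5.79 to 14.7 and 1.12 to 3.51. The lymphocyte marker CD3E was at 0 in all 24 libraries and PTPRC did not exceed 0.36 TPM. The endothelial markers CDH5 and VWF did not exceed 0.07 TPM, TEK 0.16 and PECAM1 0.19. Other markers moved with the constructs. The 4 fibroblast markers, mostly COL1A1 in OS-LM1 cells, summed to 1.75 to 2.33 TPM with sgNTC18 and 4.90 to 8.54 with shPAX8 in 786-M1A cells. The OS-LM1 sums were 4.75 to 6.13 and 29.7 to 59.3. CD14, a monocyte marker, was at 0.21 to 0.58 TPM with sgNTC18 and 1.06 to 4.51 with shPAX8. Their part in the results was not tested.

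Differences were tested with edgeR in 1 fit over the 24 libraries and are given as log2 fold changes ± SE, called at an adjusted p under 0.05 over the 15665 genes tested. The first question was how the lines differ. With sgNTC18, HIF1A, ARNT2 and EGLN1 were higher in OS-LM1 than in 786-M1A cells and EPAS1 and VHL were lower, so that 5 of the 10 genes were called against 63.0% of all genes tested (32.0% higher and 31.0% lower). With shPAX8, taking both constructs together, all 10 were called, 6 higher and 4 lower in OS-LM1 cells, against 83.1% of all genes (41.7% higher and 41.5% lower). The second question was whether the constructs differ. In 786-M1A cells 5 of the 10 were called, all lower with shPAX8-1 than with shPAX8-2, against 48.1% of all genes (24.9% higher and 23.2% lower). In OS-LM1 cells 1 was higher and 1 lower, against 23.1% of all genes (11.4% higher and 11.7% lower). The construct difference itself was higher in OS-LM1 than in 786-M1A cells for 3 genes, against 27.2% called among all genes (12.7% higher and 14.5% lower). The third question was how shPAX8 cells compare with sgNTC18 cells. In 786-M1A cells 8 were called, 4 higher and 4 lower with shPAX8, against 69.4% of all genes (34.5% higher and 34.9% lower). In OS-LM1 cells 10 were called, 6 higher and 4 lower, against 69.3% (34.2% higher and 35.1% lower). With shPAX8-1 alone 7 were called in 786-M1A cells, against 69.5% of all genes, and 8 in OS-LM1 cells, against 67.0%. With shPAX8-2 alone 8 were called in 786-M1A cells, against 62.4%, and 7 in OS-LM1 cells, against 63.5%. The shPAX8 to sgNTC18 difference differed between the lines for all 10, with 5 higher and 5 lower in OS-LM1 cells, against 58.7% of all genes (29.9% higher and 28.8% lower). The median log2 fold change over all genes lay between -0.019 and 0.022 in these 8 comparisons. The counts of the 10 genes are a description, and the comparisons with shPAX8 share libraries.

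**Figure D1:**
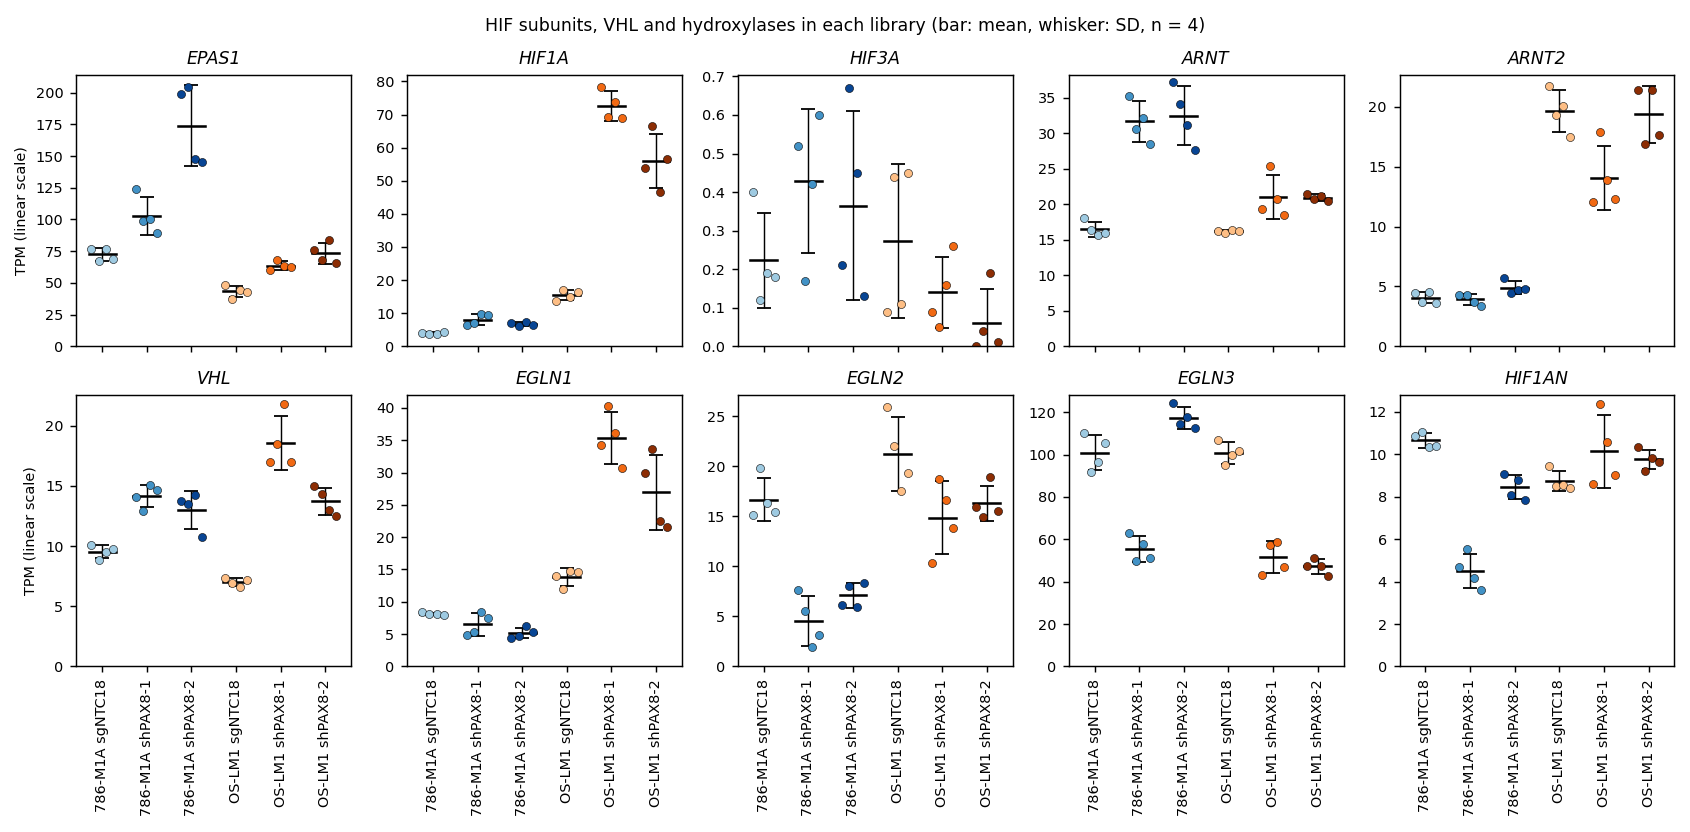
Transcript level of each of the 10 genes in every library. The vertical axes are TPM on linear scales that start at 0, the horizontal axis gives the 6 groups, each point is 1 library, bars are means and whiskers SD (n = 4). HIF1A stood at 3.78 to 9.68 TPM in the 12 libraries of 786-M1A cells and at 13.8 to 78.4 in the 12 of OS-LM1 cells.

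Of the alpha subunits, EPAS1 was the most abundant per transcript length in 786-M1A cells. It was at 77.02, 67.16, 76.63 and 69.12 TPM with sgNTC18, at 124.34, 98.66, 100.48 and 89.01 with shPAX8-1 and at 198.95, 204.29, 147.94 and 145.37 with shPAX8-2. The 3 groups did not overlap. In OS-LM1 cells EPAS1 was at 47.94, 37.65, 44.33 and 43.09 TPM with sgNTC18, at 60.38, 68.42, 63.11 and 62.36 with shPAX8-1 and at 75.79, 68.30, 83.87 and 65.52 with shPAX8-2. There the shPAX8 groups lay above all 4 sgNTC18 libraries and overlapped each other in TPM, though not in CPM (counts scaled to library size), the scale of the test. EPAS1 was lower in OS-LM1 than in 786-M1A cells by -0.66 ± 0.11 with sgNTC18 (adjusted p = 1.27e-05) and by -1.001 ± 0.08 with shPAX8 (adjusted p = 7.05e-12). Values of whole cultures cannot tell fewer expressing cells within a line from less RNA per cell. In order of level in CPM, the groups ran from 786-M1A shPAX8-2 through 786-M1A shPAX8-1, OS-LM1 shPAX8-2, 786-M1A sgNTC18 and OS-LM1 shPAX8-1 to OS-LM1 sgNTC18. The neighbours on either side of 786-M1A sgNTC18 did not differ from it beyond their spread, at 0.13 ± 0.11 each (adjusted p = 0.282 and 0.308).

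HIF1A, whose product is the other major alpha subunit, was low in 786-M1A cells, which descend from a line known to lack functional HIF1A. It was at 4.06, 3.78, 3.83 and 4.32 TPM with sgNTC18, at 6.28, 6.96, 9.68 and 9.34 with shPAX8-1 and at 6.99, 6.24, 7.36 and 6.36 with shPAX8-2. Both shPAX8 groups lay above the sgNTC18 group and overlapped each other. In OS-LM1 cells HIF1A was at 13.81, 16.90, 14.77 and 16.31 TPM with sgNTC18, at 78.35, 69.29, 73.71 and 68.89 with shPAX8-1 and at 53.96, 66.55, 46.64 and 56.43 with shPAX8-2. Every OS-LM1 library was above every 786-M1A library, and both OS-LM1 shPAX8 groups lay above sgNTC18. The shPAX8 groups of OS-LM1 cells did not overlap in TPM and overlapped in CPM, at 142 to 187 with shPAX8-1 and 112 to 157 with shPAX8-2. The line difference was 2.08 ± 0.14 with sgNTC18 (adjusted p = 4.42e-13) and 3.12 ± 0.10 with shPAX8 (adjusted p = 1.08e-20). In the order of groups only the constructs within a line did not differ, by 0.32 ± 0.12 in OS-LM1 (adjusted p = 0.0639) and 0.25 ± 0.14 in 786-M1A cells (adjusted p = 0.129). The antisense genes that overlap HIF1A did not exceed 59 counts (HIF1A-AS1) or 31 counts (HIF1A-AS2) in any library, beside 147 to 5351 for HIF1A.

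HIF3A, which encodes the remaining alpha subunit with inhibitory splice forms, had between 0 and 33 expected counts per library and at most 0.67 TPM. The 4 libraries of OS-LM1 shPAX8-2 held 0, 2.03, 16.95 and 1.43 counts. No neighbours in its order of groups differed. It was lower in OS-LM1 than in 786-M1A cells with shPAX8 by -1.86 ± 0.40 (adjusted p = 0.000116) and lower with shPAX8 than with sgNTC18 in OS-LM1 cells by -1.27 ± 0.45 (adjusted p = 0.0140). The last call was met with shPAX8-2 alone (-1.63 ± 0.56, adjusted p = 0.0127) and not with shPAX8-1 alone (-0.91 ± 0.53, adjusted p = 0.134), and it was lost without OS-LM1 sgNTC18 replicate 2, at -0.79 (adjusted p = 0.155). At this depth no difference between the lines with sgNTC18 was detectable, at 0.16 ± 0.49, and without the same library it was -0.33.

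The balance of EPAS1 and HIF1A is also given within each library, where no scaling between libraries is needed. It follows from the levels of both genes above and is a description with no test. The ratio of EPAS1 to HIF1A TPM was 16.0 to 20.01 in the 4 libraries of 786-M1A sgNTC18 and 2.23 to 3.47 in those of OS-LM1 sgNTC18. With shPAX8-1 it was 9.53 to 19.8 in 786-M1A and 0.771 to 0.987 in OS-LM1 cells, and with shPAX8-2 it was 20.1 to 32.7 and 1.03 to 1.80. HIF1A was thus above EPAS1 in all 4 OS-LM1 shPAX8-1 libraries and in no other library. On the log2 scale its mean ± SD was 4.18 ± 0.14 in 786-M1A and 1.48 ± 0.27 in OS-LM1 cells with sgNTC18 (n = 4 each). With both shPAX8 constructs it was 4.18 ± 0.65 and 0.10 ± 0.40 (n = 8 each).

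**Figure D2:**
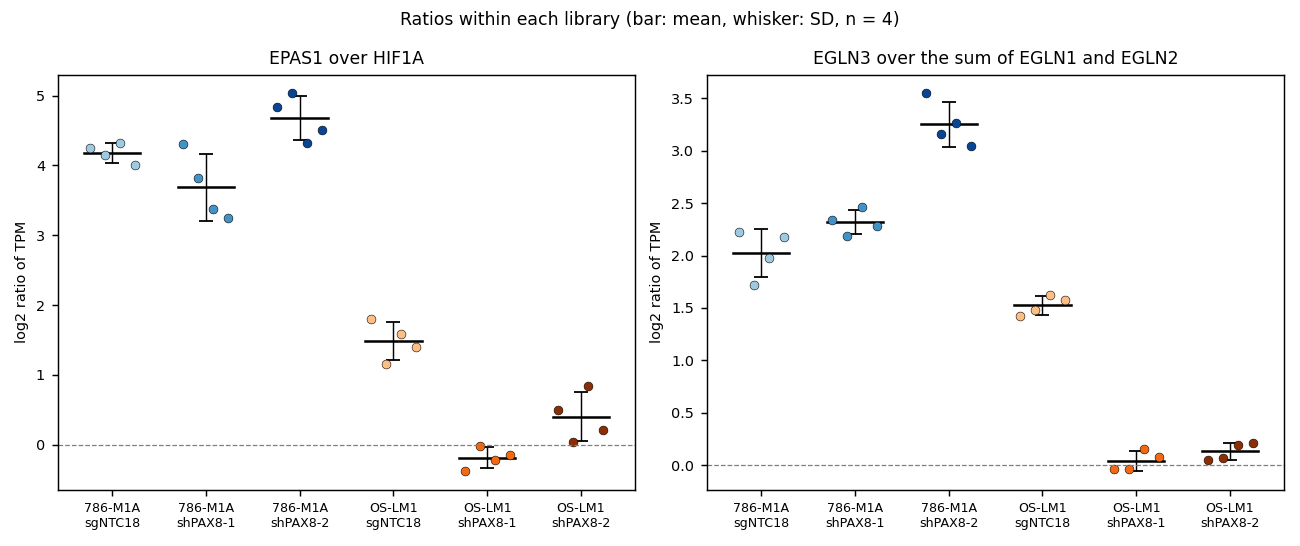
Balance of the alpha subunits and of the prolyl hydroxylases within each library. The vertical axes are log2 ratios of TPM, EPAS1 over HIF1A on the left and EGLN3 over the sum of EGLN1 and EGLN2 on the right, points are libraries, bars means and whiskers SD (n = 4), and the dashed line marks equal levels. The OS-LM1 libraries with shPAX8 lie near equal levels in both panels, between -0.38 and 0.85 on the left and -0.04 and 0.21 on the right.

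Of the beta subunits, ARNT, the partner of both major alpha subunits, was nearly level between the lines with sgNTC18, at 15.6 to 18.0 TPM in 786-M1A and 15.9 to 16.4 in OS-LM1 cells (0.06 ± 0.09, adjusted p = 0.546). With shPAX8-1 it was at 28.5 to 35.3 TPM and with shPAX8-2 at 27.6 to 37.2 in 786-M1A cells, all above the sgNTC18 libraries, and at 18.5 to 25.4 and 20.4 to 21.4 in OS-LM1 cells. The rise with shPAX8 was 1.07 ± 0.08 in 786-M1A (adjusted p = 2.52e-12) and 0.37 ± 0.07 in OS-LM1 cells (adjusted p = 0.000100). The constructs did not differ for ARNT in either line, with differences of -0.05 ± 0.09 and -0.06 ± 0.09.

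ARNT2, a related beta subunit best known from neural and kidney tissue, separated the lines in every construct. It was at 3.40 to 5.67 TPM in the 12 libraries of 786-M1A and at 12.1 to 21.8 in the 12 of OS-LM1 cells. The line difference was 2.35 ± 0.11 with sgNTC18 (adjusted p = 5.03e-16) and 1.88 ± 0.08 with shPAX8 (adjusted p = 8.25e-18). In OS-LM1 cells ARNT2 was at 12.06, 17.86, 13.89 and 12.32 TPM with shPAX8-1 against 21.43, 16.92, 21.44 and 17.67 with shPAX8-2, groups that overlapped in TPM through replicate 2 of shPAX8-1 and did not overlap in CPM (-0.53 ± 0.11, adjusted p = 0.000587). With sgNTC18 in OS-LM1 cells ARNT2 was at 17.5 to 21.8 TPM, above ARNT in all 4 libraries, and it was below ARNT in all 4 with shPAX8-1 and in 3 of 4 with shPAX8-2. In 786-M1A cells it was below ARNT in every library.

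VHL, the substrate receptor of the ubiquitin ligase, was at 10.10, 8.85, 9.47 and 9.72 TPM in 786-M1A and at 7.32, 6.93, 6.63 and 7.16 in OS-LM1 cells with sgNTC18. It was at 12.9 to 15.1 TPM with shPAX8-1 and 10.7 to 14.2 with shPAX8-2 in 786-M1A cells. In the other line it reached 21.8 with shPAX8-1 and lay at 12.5 to 15.0 with shPAX8-2. Every shPAX8 library of a line lay above every sgNTC18 library of that line. The rise was 0.63 ± 0.09 in 786-M1A (adjusted p = 3.04e-07) and 1.19 ± 0.09 in OS-LM1 cells (adjusted p = 3.61e-12), and the difference between these rises was 0.56 ± 0.12 (adjusted p = 0.000211). Between the lines VHL was lower in OS-LM1 cells with sgNTC18 (-0.36 ± 0.10, adjusted p = 0.00191) and higher with shPAX8 (0.20 ± 0.07, adjusted p = 0.00843). The latter call was lost with shPAX8-2 alone, at 0.06 (adjusted p = 0.551), and with replicates 3 and 4 only of 786-M1A shPAX8-1, at 0.14 (adjusted p = 0.0748). The transcript level does not say whether the VHL protein of these cells is functional.

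Of the prolyl hydroxylases, EGLN3 had the highest level per transcript length in every group, at 42.8 to 124 TPM. It was at 110.03, 91.79, 96.29 and 105.49 TPM in 786-M1A and at 106.98, 94.87, 99.67 and 101.58 in OS-LM1 cells with sgNTC18, groups that overlapped (0.08 ± 0.09, adjusted p = 0.410). In 786-M1A cells it was at 62.94, 49.76, 57.68 and 51.42 with shPAX8-1 and at 124.19, 114.28, 117.90 and 112.36 with shPAX8-2. In OS-LM1 cells it was at 43.34, 57.55, 58.78 and 47.13 with shPAX8-1 and at 47.59, 51.12, 47.43 and 42.77 with shPAX8-2. Of the 4 shPAX8 groups, 3 lay below the sgNTC18 libraries of their line, and 786-M1A shPAX8-2 lay above them. Against sgNTC18 the difference in 786-M1A cells was -0.76 ± 0.09 with shPAX8-1 (adjusted p = 1.55e-08) and 0.34 ± 0.09 with shPAX8-2 (adjusted p = 0.00138), opposite in sign. The mean of both, -0.21 ± 0.07 (adjusted p = 0.0128), describes neither construct, and its call was lost without 786-M1A sgNTC18 replicate 4, at -0.18 (adjusted p = 0.0541). In OS-LM1 cells EGLN3 fell by 0.99 ± 0.09 with shPAX8-1 and by 1.06 ± 0.09 with shPAX8-2 on the log2 scale (adjusted p = 1.70e-10 and 6.12e-11). The line difference with shPAX8, -0.73 ± 0.06 (adjusted p = 1.98e-11), came to -0.15 with shPAX8-1 alone (adjusted p = 0.127) and to -1.31 with shPAX8-2 alone.

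EGLN1, the prolyl hydroxylase that sets HIF levels in most cells with oxygen, was at 8.43, 8.09, 8.10 and 7.99 TPM in 786-M1A and at 13.98, 11.93, 14.81 and 14.62 in OS-LM1 cells with sgNTC18. In OS-LM1 cells it was at 34.21, 40.24, 36.11 and 30.71 with shPAX8-1 and at 29.98, 33.66, 22.56 and 21.50 with shPAX8-2, all above the sgNTC18 group. In 786-M1A cells it was at 4.81, 5.32, 8.47 and 7.44 with shPAX8-1, where replicates 1 and 2 were low and replicates 3 and 4 near the sgNTC18 level, and at 4.47, 4.73, 6.29 and 5.28 with shPAX8-2, all below it. The line difference was 0.85 ± 0.15 with sgNTC18 (adjusted p = 1.63e-05) and 2.37 ± 0.11 with shPAX8 (adjusted p = 4.75e-17). Against sgNTC18, EGLN1 rose by 1.16 ± 0.13 in OS-LM1 cells (adjusted p = 1.64e-08) and fell by 0.37 ± 0.13 in 786-M1A cells (adjusted p = 0.0125). The fall was called with shPAX8-2 alone (-0.53 ± 0.15, adjusted p = 0.00365) and not with shPAX8-1 alone (-0.21 ± 0.15, adjusted p = 0.216). The difference between the lines in this comparison was 1.53 ± 0.18 (adjusted p = 6.76e-08).

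EGLN2, the third prolyl hydroxylase, was at 15.1 to 19.8 TPM in 786-M1A and 17.5 to 25.97 in OS-LM1 cells with sgNTC18. In 786-M1A cells it was at 7.60, 5.58, 1.97 and 3.12 with shPAX8-1 and at 6.15, 8.06, 5.97 and 8.34 with shPAX8-2. Replicates 3 and 4 of shPAX8-1 were the lowest, and all 8 libraries lay below sgNTC18 (-1.42 ± 0.20, adjusted p = 4.38e-07). In OS-LM1 cells it was at 10.3 to 18.7 and 14.95 to 18.9 TPM. The fall there, -0.44 ± 0.19 (adjusted p = 0.0405), was not called without sgNTC18 replicate 1 or 2, shPAX8-1 replicate 1 or 4 or shPAX8-2 replicate 1, 2 or 4, where it was -0.45 to -0.33 (adjusted p = 0.0520 to 0.167). With shPAX8-2 alone in OS-LM1 cells EGLN2 was at -0.34 ± 0.22 (adjusted p = 0.188). The readthrough transcript RAB4B-EGLN2 shares sequence with EGLN2 and was listed at 0 in all 4 OS-LM1 shPAX8-2 libraries and at up to 221 counts in others, so that reads could be split between them. In replicates 1 to 4 of 786-M1A shPAX8-1 it was listed at 0, 26.7, 79.2 and 40.4 counts, beside 181, 144, 40.4 and 73.6 for EGLN2. The low EGLN2 level of replicates 3 and 4 there can thus hold such a split. With both summed, the line difference with sgNTC18 was called (0.55, adjusted p = 0.00104), whereas EGLN2 alone gave 0.43 ± 0.22 (adjusted p = 0.0942). The summed differences from sgNTC18 were -1.15 in 786-M1A and -0.55 in OS-LM1 cells, both called.

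The ratio of EGLN3 to the sum of EGLN1 and EGLN2 follows from these levels and is likewise given with no test. It was 3.29 to 4.67 in 786-M1A and 2.68 to 3.08 in OS-LM1 cells with sgNTC18. With shPAX8 it was 4.57 to 5.52 (shPAX8-1) and 8.25 to 11.7 (shPAX8-2) in 786-M1A cells, and 0.974 to 1.11 and 1.04 to 1.16 in OS-LM1 cells. On the log2 scale its mean ± SD was 2.02 ± 0.23 in 786-M1A and 1.53 ± 0.09 in OS-LM1 cells with sgNTC18 (n = 4 each), and 2.79 ± 0.52 and 0.09 ± 0.10 with both constructs (n = 8 each).

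HIF1AN was at 10.85, 11.04, 10.34 and 10.40 TPM in 786-M1A and at 9.45, 8.51, 8.55 and 8.43 in OS-LM1 cells with sgNTC18 (-0.20 ± 0.10, adjusted p = 0.0675, and -0.24 with adjusted p = 0.0494 without OS-LM1 sgNTC18 replicate 1). In 786-M1A cells it was at 4.67, 5.53, 4.16 and 3.61 with shPAX8-1, below every other library of the series, and at 9.05, 8.08, 8.80 and 7.86 with shPAX8-2. In the order of groups no neighbours differed except 786-M1A shPAX8-1 from the next above it. Against sgNTC18 the difference was -1.13 ± 0.10 with shPAX8-1 (adjusted p = 1.27e-10) and -0.21 ± 0.10 with shPAX8-2 (adjusted p = 0.0594). In OS-LM1 cells HIF1AN was at 8.60 to 12.4 TPM with shPAX8-1 and 9.23 to 10.4 with shPAX8-2, and its difference from sgNTC18 of 0.19 ± 0.08 (adjusted p = 0.0472) was not called without sgNTC18 replicate 2, 3 or 4, shPAX8-1 replicate 2 or 3 or shPAX8-2 replicate 1, 3 or 4, where it was 0.16 to 0.19 (adjusted p = 0.0579 to 0.130). Neither construct alone gave the call, at 0.19 ± 0.10 with each (adjusted p = 0.0921 for shPAX8-1 and 0.0812 for shPAX8-2).

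**Figure D3:**
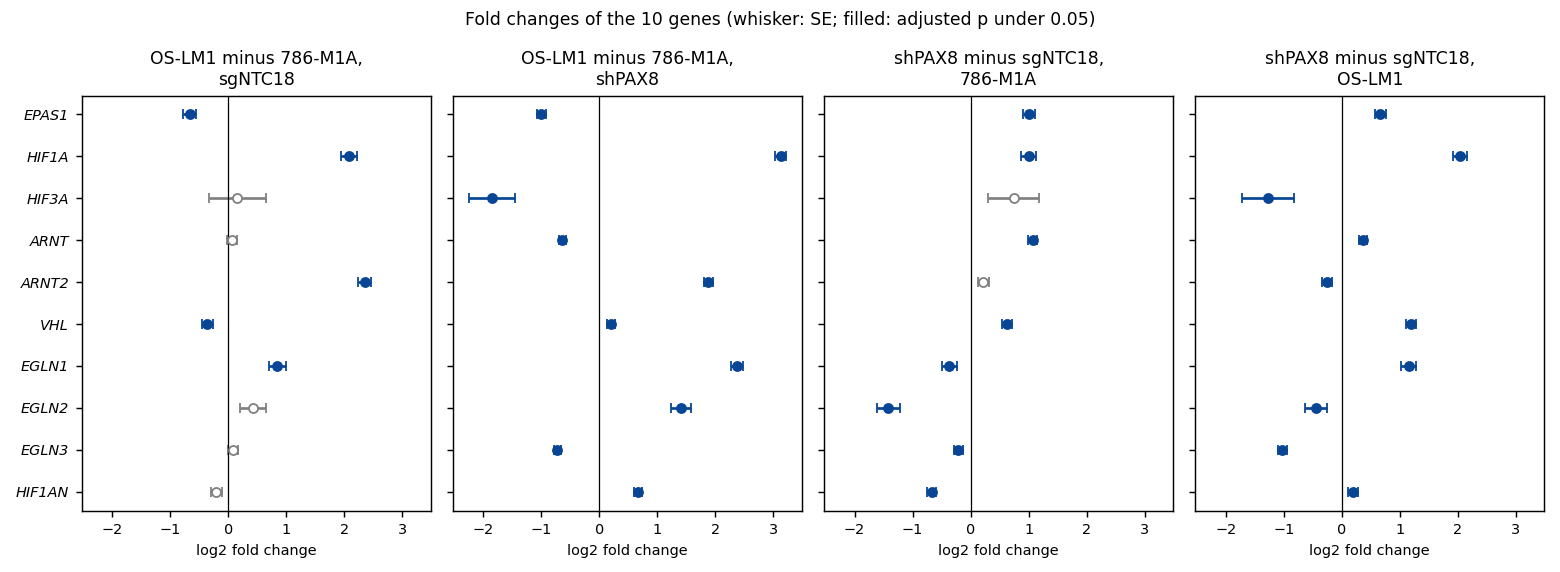
Log2 fold changes of the 10 genes between lines and between shPAX8 and sgNTC18 cells. The horizontal axes are log2 fold change, whiskers are SE and filled points have an adjusted p under 0.05 in edgeR. HIF1A lies to the right of 0 in all 4 panels, from 1.00 to 3.12, while EPAS1 is lower in OS-LM1 cells and higher with shPAX8.

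The constructs were compared in more detail because both target PAX8. In 786-M1A cells EGLN3 (-1.10 ± 0.09, adjusted p = 3.37e-10), HIF1AN (-0.92 ± 0.10, adjusted p = 7.48e-08) and EPAS1 (-0.77 ± 0.11, adjusted p = 6.00e-06) were lower with shPAX8-1 than with shPAX8-2. These 3 were also the ones for which the construct difference itself differed between the lines, by 1.17 ± 0.12, 0.91 ± 0.14 and 0.51 ± 0.16 (adjusted p = 1.66e-07, 2.99e-05 and 0.0196). For EPAS1 this call was lost without 786-M1A shPAX8-2 replicate 2, at 0.41 (adjusted p = 0.0614), and with replicates 1 and 2 of 786-M1A shPAX8-1 only, at 0.41 (adjusted p = 0.112). PAX8 was also lower with shPAX8-1 in 786-M1A cells, by -1.18 ± 0.15 (adjusted p = 6.26e-07), and was nearly level between the constructs in OS-LM1 cells (-0.02 ± 0.14). The part of the remaining PAX8 level in the other differences was not tested.

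EGLN2 (-0.65 ± 0.25, adjusted p = 0.0347) and ARNT2 (-0.32 ± 0.11, adjusted p = 0.0212) were the other 2 genes called in 786-M1A cells, and both rested on the replicates used. With replicates 1 and 2 of shPAX8-1 only they were at -0.15 (adjusted p = 0.660) and -0.21 (adjusted p = 0.297), and with replicates 3 and 4 only at -1.47 and -0.46, both called. Leaving out shPAX8-1 replicate 3, shPAX8-1 replicate 4, or, for EGLN2, shPAX8-2 replicate 2 or 4 and, for ARNT2, shPAX8-2 replicate 1 also ended the call, with values of -0.58 to -0.41 for EGLN2 and -0.29 to -0.26 for ARNT2. EGLN2 summed with RAB4B-EGLN2 was at -0.37 (adjusted p = 0.0430) over all replicates. The sum was not fitted for pairs of replicates, so the value of -1.47 does not count the readthrough reads of replicates 3 and 4. EGLN1 and HIF1A, which were not called over all 4 replicates (0.32 ± 0.15 and 0.25 ± 0.14), were called with replicates 3 and 4 only, at 0.62 and 0.50, and were at -0.055 and -0.046 with replicates 1 and 2 only. HIF1A was also called without shPAX8-1 replicate 1, at 0.36, and EGLN1 without shPAX8-1 replicate 1 or 2 or shPAX8-2 replicate 3, at 0.41 to 0.44. EGLN3, HIF1AN and EPAS1 were called with either pair of shPAX8-1 replicates, at -1.12 to -1.08, -1.12 to -0.75 and -0.88 to -0.67. Pairs of shPAX8-2 replicates were not fitted alone.

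Libraries of 786-M1A shPAX8-1 and shPAX8-2 also differed by the base composition of the genes, with a Spearman correlation of -0.53 over 14083 genes between a gene's log2 fold change and its GC content, where genes are no independent replicates. HIF1A, at 36.4% GC in its longest transcript, was the lowest of the 10 and EGLN2, at 55.8%, the highest. Once every library's trend with GC was taken out, the values were -1.04 for EGLN3, -0.96 for HIF1AN and -0.57 for EPAS1, all still called. EGLN2 (-0.35) and ARNT2 (-0.16) were no longer called, and HIF1A turned to -0.21 (adjusted p = 0.0688). The correlation was -0.193 between the constructs in OS-LM1 cells and 0.397 for the difference between lines. Between the lines it was -0.245 with sgNTC18 and -0.202 with shPAX8. Against sgNTC18 it was -0.226 in 786-M1A and -0.306 in OS-LM1 cells. With a negative correlation, genes low in GC, such as HIF1A, tended to be higher. For HIF1A, trend-removed values of those line and sgNTC18 comparisons are not given here.

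**Figure D4:**
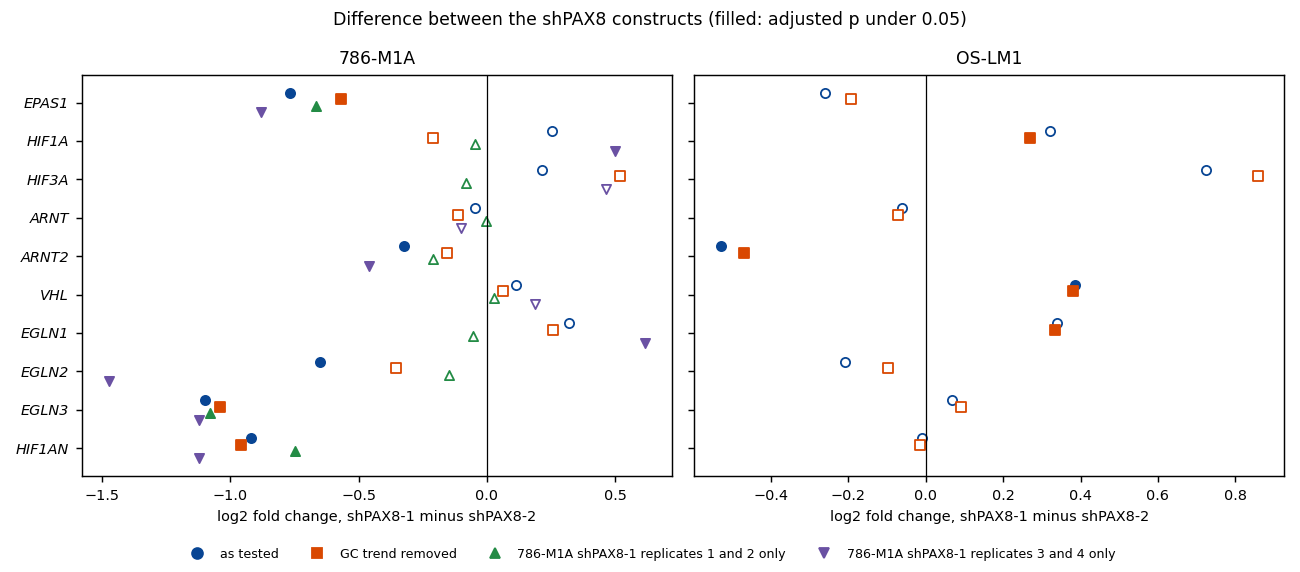
Difference between the shPAX8 constructs for the 10 genes in 786-M1A (left) and OS-LM1 cells (right). The horizontal axes are log2 fold change of shPAX8-1 over shPAX8-2, symbols mark the fit over all libraries, the fit with the GC trend removed and fits with only a pair of the 786-M1A shPAX8-1 replicates, and filled symbols have an adjusted p under 0.05. EGLN3, HIF1AN and EPAS1 lie at -0.57 or lower under all 4 settings in 786-M1A cells, while HIF1A lies on both sides of 0.

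In OS-LM1 cells ARNT2 (-0.53) and VHL (0.39 ± 0.09, adjusted p = 0.00369) were the genes called between the constructs. EGLN1 and HIF1A were at 0.34 ± 0.14 and 0.32 ± 0.12 and short of the threshold. Both were called without OS-LM1 shPAX8-2 replicate 2, at 0.47 and 0.41, and with the GC trend removed, at 0.33 and 0.27. HIF1A was also called without OS-LM1 shPAX8-1 replicate 2, at 0.39. HIF3A was called without OS-LM1 shPAX8-2 replicate 3, which held most of its counts in that group, at 2.36 (adjusted p = 0.0417).

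In the comparison of shPAX8 with sgNTC18, HIF1A, EPAS1, ARNT and VHL rose in both lines. HIF1A rose by 1.00 ± 0.12 in 786-M1A and 2.05 ± 0.12 in OS-LM1 cells (adjusted p = 6.61e-08 and 4.35e-14), and EPAS1 by 1.00 ± 0.10 and 0.67 ± 0.10 (adjusted p = 1.80e-09 and 1.68e-06). Each of these 4 genes rose with each construct alone in each line. The difference between the lines was 1.05 ± 0.16 for HIF1A (adjusted p = 4.87e-06). For EPAS1 it was -0.34 ± 0.14 (adjusted p = 0.0366), a call lost without 786-M1A sgNTC18 replicate 1, 2 or 4, shPAX8-1 replicate 1 or shPAX8-2 replicate 1 or 2, or OS-LM1 sgNTC18 replicate 1, 3 or 4 or shPAX8-2 replicate 1, 2 or 4, at -0.35 to -0.29 (adjusted p = 0.0505 to 0.0953). With shPAX8-1 alone it was -0.09 (adjusted p = 0.666). ARNT2 was at 0.22 ± 0.10 in 786-M1A cells (adjusted p = 0.0509, called at 0.24 to 0.29 without sgNTC18 replicate 3, shPAX8-1 replicate 3 or 4 or shPAX8-2 replicate 2 or 3) and at -0.25 ± 0.09 in OS-LM1 cells (adjusted p = 0.0155). The latter call was lost without OS-LM1 sgNTC18 replicate 1 (-0.20, adjusted p = 0.0785), with shPAX8-2 alone (0.01) and with the GC trend removed (-0.08, adjusted p = 0.321). With that trend removed EGLN2 in OS-LM1 cells was at -0.13 (adjusted p = 0.446).

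Genes that work with these 10 were described from lists chosen by function. Their counts are read against all genes tested, of which 63.0% were called between the lines with sgNTC18 (32.0% higher and 31.0% lower), 48.1% between the constructs in 786-M1A cells (24.9% higher and 23.2% lower) and 23.1% in OS-LM1 cells (11.4% higher and 11.7% lower). Of 5 partners of VHL in its ligase, 2 were higher and 1 lower in OS-LM1 cells with sgNTC18, with a median of 0.245 against 0.006 over all genes. RBX1, the RING subunit, was at 0.46 and TCEB1, which encodes elongin C, at -0.77. Between the constructs TCEB1 was higher with shPAX8-1 in 786-M1A cells (0.92 ± 0.19, adjusted p = 0.000241) and TCEB2, which encodes elongin B, in OS-LM1 cells (0.41 ± 0.11, adjusted p = 0.00826). In 786-M1A replicates 1 to 4 TCEB1 was at 123, 148, 237 and 255 CPM with shPAX8-1, and at 85.9 to 118 with shPAX8-2. Values for the list genes are given from the fit over all libraries only. No partner was called lower in either construct comparison.

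Of 19 tested genes for HIF turnover and cofactors, 6 were higher and 5 lower in OS-LM1 cells with sgNTC18, against 63.0% of all genes called, with a median of 0.003. The extremes were SENP1, a SUMO protease (0.58), and USP20, a deubiquitinase (-1.57). In 786-M1A cells 8 were higher and 6 lower with shPAX8-1 than with shPAX8-2, from 1.08 for the chaperone HSP90AA1 to -1.11 for P4HTM, a transmembrane prolyl hydroxylase. In replicates 1 to 4 of shPAX8-1 HSP90AA1 was at 529, 713, 915 and 941 CPM and P4HTM at 34.4, 31.3, 21.5 and 20.7. With shPAX8-2 they were at 327 to 469 and 48.5 to 64.6. In OS-LM1 cells 1 was higher and 2 lower, with CITED2, which competes with HIF alpha for CBP and p300, at 0.97 and P4HTM at -0.71. P4HTM was thus lower with shPAX8-1 in both lines (adjusted p = 4.07e-06 and 0.00214).

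Of 13 tested genes for other proteins of the bHLH-PAS family, to which the HIF subunits belong, 4 were higher and 3 lower in OS-LM1 cells with sgNTC18, against 63.0% of all genes called, with a median of -0.028. NPAS1, with 74 counts over 4 OS-LM1 and 13 over 4 786-M1A libraries, was at 1.90 and the clock gene PER3 at -0.88. With shPAX8-1 against shPAX8-2, NPAS3 was at 1.82 in 786-M1A and at 3.03 in OS-LM1 cells, with 43 against 10 and 44 against 6 counts over 4 libraries each. The largest falls were those of PER2 in 786-M1A (-0.85) and NPAS2 in OS-LM1 cells (-0.36). In all, 6 were higher and 2 lower in 786-M1A cells (median 0.252, against 48.1% of all genes called), and 4 and 1 in OS-LM1 cells (median 0.116, against 23.1%).

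Of 20 HIF target genes, 10 were higher and 6 lower in OS-LM1 cells with sgNTC18, against 63.0% of all genes called, with a median of 0.26. CA9, a carbonic anhydrase, had 889 counts over the 4 OS-LM1 and 0 over the 4 786-M1A libraries, at least 205-fold higher against a floor of 3 counts over the group. ANGPTL4, an inhibitor of lipoprotein lipase, was at -3.03. In 786-M1A cells 3 were higher and 11 lower with shPAX8-1, with a median of -0.485 against -0.019 over all genes, from 0.56 for PDK1, a kinase that limits pyruvate oxidation, to -2.76 for ANGPTL4. In OS-LM1 cells 4 were higher and 8 lower, from 0.75 for BNIP3, a mitophagy receptor, to -0.89 for ANGPTL4, with a median of -0.135. With shPAX8 against sgNTC18, 10 were higher and 4 lower in 786-M1A cells (median 0.63) and 9 and 8 in OS-LM1 cells (median 0.15), against 69.4% and 69.3% of all genes called. These counts take both constructs together and can describe neither. In 786-M1A cells SLC2A1 was at 1312 to 1493 CPM with sgNTC18, 740 to 1142 with shPAX8-1 and 1682 to 2135 with shPAX8-2. CCND1 was at 595 to 639, 341 to 466 and 654 to 945. LOX lay above sgNTC18 (12.8 to 14.4) with both constructs, at 130 to 151 and 133 to 160.

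Genes whose pattern over the 24 libraries was closest to 3 of the members were found among 9918 well-detected genes, by the root mean square difference of log2 CPM after each gene was centred. For EPAS1 they were MMP14 (0.20), TM9SF4 (0.22) and ZNF621 (0.22), where the median gene was at 0.88. MMP14 averaged 293 CPM in 786-M1A cells with sgNTC18, 633 with shPAX8-1 and 776 with shPAX8-2, and 193, 292 and 309 in OS-LM1 cells. For HIF1A they were DCBLD1 (0.32), ARRDC4 (0.37) and TNFRSF21 (0.37), against a median of 1.64. DCBLD1 averaged 6.70, 11.6 and 10.1 CPM in 786-M1A and 19.4, 78.5 and 64.2 in OS-LM1 cells, in the same order of constructs. For EGLN3 they were ZNF395 (0.19), CARHSP1 (0.22) and CPNE1 (0.23), against a median of 0.79. ZNF395 averaged 110, 81.9 and 159 CPM in 786-M1A and 133, 65.3 and 61.9 in OS-LM1 cells. The measure describes likeness of level only.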

How the data were processed

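RNA-seq values were taken as deposited for 24 libraries, 4 replicates in each of 6 groups. Per the labels and the study's methods, the authors aligned reads to hg38 with Bowtie2 and estimated expected counts and TPM per gene with RSEM, whose versions are not given in the sources used here. The library kit is KAPA stranded mRNA in the labels and Lexogen in the methods, and which was used is not settled here. Expected counts deposited by the authors were rounded to whole numbers, filterByExpr left out weakly counted genes, and 15665 genes were fitted with TMM factors and the quasi-likelihood test of edgeR 4.0.16 in R 4.3.3 with Benjamini-Hochberg adjustment. TPM values deposited by the authors were used for levels and ratios, and ratios are given without a test, since they follow from the levels of genes whose results were known; exact permutation tests planned for them are not reported. The members and lists were chosen with earlier results of these data known. Genes named outside the 10 members were the largest called rise and fall of each list and the 3 genes closest in pattern. In data simulated for shPAX8-1 against shPAX8-2 in OS-LM1 cells over 15287 genes, 57% of genes changed 1.5-fold and 92% of those changed 2-fold were recovered, with 8.6% false calls. The false share was above the threshold of 0.05. The changed genes were drawn from well-counted genes only, so these shares do not cover genes with few counts such as HIF3A and NPAS3. Few genes were changed and all groups otherwise had the same means, so the shares do not carry over to comparisons where many genes differ. Depth ran from 11634419 to 52059375 counts per library. No replicates agreed within sampling noise (chi-square per gene at least 3.73). Alternatives were DESeq2 1.42.0, its size factors, no count filter, a replicate block, removal of each library's GC trend with splines of 5 degrees of freedom, each construct alone, pairs of 786-M1A shPAX8-1 replicates, only the libraries compared, EGLN2 summed with RAB4B-EGLN2, and each library left out. GC content was matched for 87.5% of genes. A marker gene of the immune list is not reported here.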

Additional observations from a re-analysis of the deposited data

Results flagged for a closer look

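Of 60 groups of 4 libraries examined for 1 library lying apart, 3 held one, and chance gives about 1 in 20, or 3. They were EPAS1 in OS-LM1 shPAX8-2 replicate 3 at 256.4 CPM, HIF1A in 786-M1A sgNTC18 replicate 4 at 9.31 CPM, and ARNT in OS-LM1 shPAX8-1 replicate 2 at 62.7 CPM.

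The difference between shPAX8-1 and shPAX8-2 differed between the lines by 0.51 for EPAS1, 1.17 for EGLN3 and 0.91 for HIF1AN, tested as an interaction in edgeR. EGLN2 reached the threshold in that test without 786-M1A shPAX8-1 replicate 1, at 0.79 (adjusted p = 0.0431). The EPAS1 call was lost without 786-M1A shPAX8-2 replicate 2, at 0.41.

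The difference between shPAX8 and sgNTC18 differed between the lines for all 10 genes by the same kind of test. It was higher in OS-LM1 cells for EGLN1 (1.53), HIF1A (1.05), EGLN2 (0.98), HIF1AN (0.86) and VHL (0.56). It was lower for HIF3A (-2.02), EGLN3 (-0.81), ARNT (-0.71), ARNT2 (-0.47) and EPAS1 (-0.34). PAX8 itself differed in this test by 1.87, with the larger fall in 786-M1A cells.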

How the results depend on the processing

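Over all pairs of groups, correlations of same-numbered libraries ran from -0.362 to 0.271. Between shPAX8-1 and shPAX8-2 of 786-M1A cells all were positive, from 0.037 to 0.271. Their mean was 0.17, against -0.057 for libraries of unlike number. Whether replicate numbers pair these libraries was not settled. The replicate block called 5, 2 and 3 of the 10 genes in the construct comparisons of 786-M1A cells, OS-LM1 cells and their difference. With the block ARNT2 was called in 786-M1A shPAX8 cells (0.22, adjusted p = 0.0445) and HIF1AN and EGLN2 were not in OS-LM1 cells. Between the constructs in 786-M1A cells 3 members were called with the GC trend removed, with replicates 1 and 2 of shPAX8-1 only, and with only the libraries compared, and 3 to 7 with a library left out. In OS-LM1 cells 4 were called with the GC trend removed and 2 to 4 with a library left out, and for the difference between lines 5 with the GC trend removed. Over all genes, 3890 in place of 7536 were called in 786-M1A cells with replicates 1 and 2 only, and 2579 or 6817 in place of 4264 for the difference between lines with replicates 1 and 2 or 3 and 4 only.

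Signs turned only for values short of the threshold, except EGLN3 and ARNT2 below. Between the constructs in 786-M1A cells HIF1A was at -0.21 with the GC trend removed, and HIF1A, HIF3A and EGLN1 at -0.046, -0.082 and -0.055 with replicates 1 and 2 only. HIF1AN in OS-LM1 cells was at 0.000 with only the libraries compared. For the difference between lines, ARNT was at 0.039 with the GC trend removed, EGLN2 at -0.057 with replicates 1 and 2 only, and HIF1A, ARNT and EGLN1 at -0.176, 0.044 and -0.275 with replicates 3 and 4 only. With shPAX8-2 alone EGLN3 was at 0.336 against sgNTC18 in 786-M1A and ARNT2 at 0.011 in OS-LM1 cells. With a library left out, HIF3A ranged from -0.33 to 0.38 between the lines with sgNTC18 and from -0.017 to 0.459 between the constructs in 786-M1A cells, where ARNT ranged from -0.11 to 0.009. HIF1AN ranged from -0.059 to 0.038 between the constructs in OS-LM1 cells, and for the difference between lines HIF1A from -0.038 to 0.17, ARNT from -0.069 to 0.05 and EGLN1 from -0.103 to 0.163. The cause of these changes was not tested. Depth limits HIF3A most.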
